A study of Arabidopsis thaliana with 2 samples.

Results

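The genes described here are ATSPS4F (AT4G10120), LDA (AT5G04360) and SWEETIE (AT1G67140), which act in sucrose synthesis, starch breakdown and sugar signalling in Arabidopsis thaliana. They were chosen by gene identity among genes whose splicing events the authors listed as changed between the lefko mutant and wild type, so their differences between genotypes are a description and were not tested. They are 3 of 281 listed genes and hold 4 of 343 listed events: 1 retained intron in ATSPS4F, 1 retained intron and 1 alternative 5' splice site in LDA, and 1 alternative 3' splice site in SWEETIE. In the authors' deposited table the largest adjusted p (FDR) among all listed events was 0.0491, so the tables hold no event beyond that value and an unlisted intron has no measurement.

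RNA came from cotyledons, the seed leaves, of the lefko mutant and of wild-type plants. Both are in the Col-0 ecotype, and seedlings of both grew under long days on medium that held sucrose. Each genotype has 1 sample in the labels. The count columns of the mutant are named lefko1, as is the mutant in the protocol, whereas the only mutant sample is titled lefko2. Every mutant value below comes from the lefko1 columns, taken to be that sample. Seeds rather than cotyledons are entered as the source of both samples. The sources used here name neither the mutated gene nor the allele. Each count cell of the tables holds 3 counts per genotype, called count sets here. Whether sets are separate plants, libraries or runs is not stated, so each SD and SE below measures only the spread between these sets. Reads over all listed events summed to between 166819 and 178604 per set in lefko and between 168946 and 187225 in wild type. The tables hold no level of any marker gene, so the labelled tissue was not checked.

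Leaves make sucrose in the cytosol, where sucrose-phosphate synthase joins UDP-glucose and fructose 6-phosphate in a regulated step. The surplus of photosynthesis is stored in the chloroplast as starch, whose branch points must be cut for its full breakdown at night. ATSPS4F encodes 1 of the sucrose-phosphate synthases. LDA encodes limit dextrinase, a debranching enzyme that cuts the branch links of short branched glucans. SWEETIE encodes a very large protein with HEAT repeats, and sweetie mutants are known for altered sugar, starch and trehalose metabolism. An intron left in a coding sequence often brings a stop codon into the reading frame, and transcripts with a stop far upstream of their last exon junction are often degraded by nonsense-mediated decay.

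The sequences of the 3 sites show where each event alters the reading frame. They are read from RefSeq TAIR10.1 on the coding strand, 5' to 3'. Capitals mark the splice site dinucleotides (GT at the start of an intron, AG at its end) and the first in-frame stop codon of the changed form. In LDA the stop codon follows the G of the splice site directly, so that both stand as one run of 4 capitals. The ATSPS4F sequence spans chr4:6315499-6315645 with 9 exon bases on each side of the intron, the LDA sequence chr5:1223182-1223480 with 5 exon bases on each side, and the SWEETIE sequence chr1:25108356-25108396, which covers the end of the intron and the start of the exon.
ATSPS4F: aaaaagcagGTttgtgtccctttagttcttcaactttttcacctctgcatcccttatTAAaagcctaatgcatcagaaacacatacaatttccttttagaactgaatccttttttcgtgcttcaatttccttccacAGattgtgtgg
LDA: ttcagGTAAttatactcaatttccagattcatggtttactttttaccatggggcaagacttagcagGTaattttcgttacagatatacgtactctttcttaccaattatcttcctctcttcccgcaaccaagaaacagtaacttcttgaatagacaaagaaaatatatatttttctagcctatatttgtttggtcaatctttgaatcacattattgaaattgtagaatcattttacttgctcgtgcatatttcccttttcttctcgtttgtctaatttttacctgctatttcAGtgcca
SWEETIE: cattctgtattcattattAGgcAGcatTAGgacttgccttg

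The inclusion share below is the percentage of an event's reads that include the stretch (inclusion reads) among these plus the reads that join the flanking exons without it (skipping reads). A change is lefko minus wild type, in percentage points. The authors' rule for counting inclusion reads is unknown here, so a raw share is read mainly between genotypes of the same event. Ranks, medians and distances across events also rest on raw shares, so they depend on that rule.

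In ATSPS4F, reads of intron 3 took a larger share in lefko. The intron spans chr4:6315508-6315636 on the plus strand, is 129 nt long and interrupts coding sequence. The lefko sets held 16, 11 and 22 inclusion reads and 14, 24 and 9 skipping reads. The wild-type sets held 16, 7 and 4 inclusion reads and 49, 41 and 66 skipping reads. Inclusion reads were thus few in both genotypes, and the skipping reads set the genotypes apart in every set.

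The inclusion share of ATSPS4F was 53.3%, 31.4% and 71.0% in the lefko sets, against 24.6%, 14.6% and 5.71% in the wild-type sets. The ranges did not overlap, but the lowest lefko set lay close to the highest wild-type set. The exact (Clopper-Pearson) 95% intervals of those neighbours overlapped, at 16.9% to 49.3% for the lefko set and 14.8% to 36.9% for the wild-type set. All intervals here cover counting error only. The mean was 51.9% ± 19.8 in lefko and 15% ± 9.46 in wild type (SD, 3 sets each), a change of 36.9 points (SE 12.7). Without the third set of both genotypes the change was 22.8 points. The FDR in the authors' deposited table was 0.0220, rank 175 among 214 retention events. Ranked from the largest rise in lefko, the change stood 14 among all of them. It stood 1 among the 160 with at least 20 reads in each set. This first rank depends on the counting rule. With inclusion reads divided by 2 the change was 28.4 points for ATSPS4F and 40.7 for LDA retention, which is also among the 160.

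**Figure D1:**
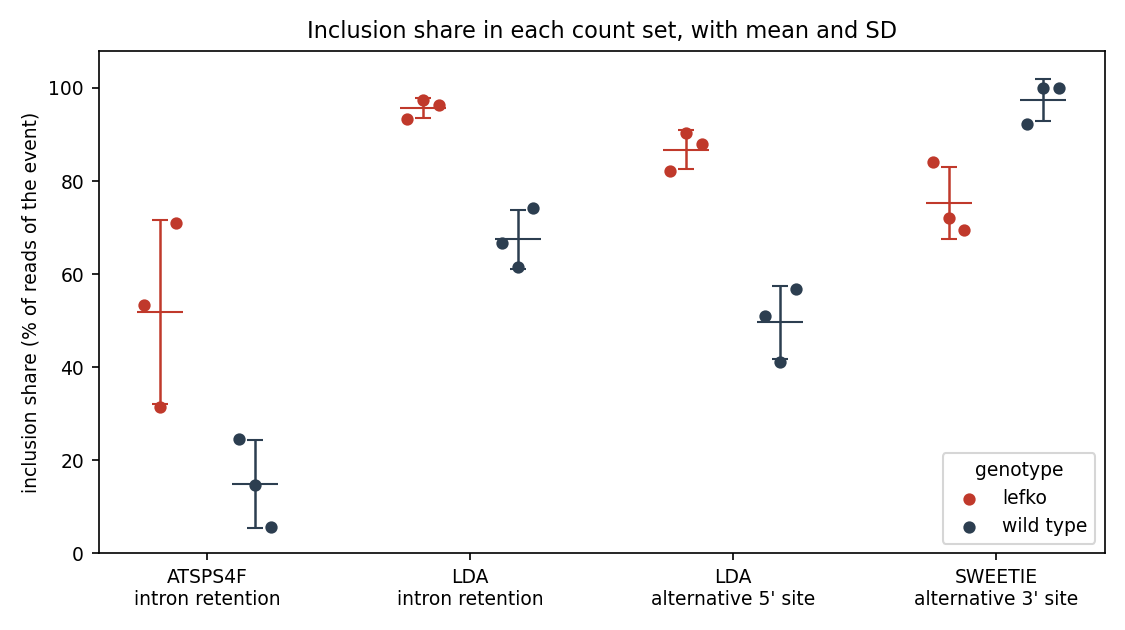
Inclusion share (percent of the event's reads) in each of 3 count sets per genotype for the 4 events, with lefko in red and wild type in dark blue; points are sets, bars the mean and its SD. In lefko the share was higher for ATSPS4F and both LDA events and lower for SWEETIE, and the 3 lefko sets of ATSPS4F spread from 31.4% to 71.0%.

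Summed over sets, ATSPS4F had 47 skipping reads in lefko and 156 in wild type, a ratio of 0.301 (95% interval 0.213 to 0.420). Inclusion reads summed to 49 in lefko and 27 in wild type, a ratio of 1.81 (1.11 to 3.02). The event's total was 96 reads in lefko against 183 in wild type, a ratio of 0.525. That total ratio was rank 11 from the lowest among 214 retention events, whose median was 1.36. Without library totals these ratios are not scaled for depth. Over all 343 listed events the median ratio of the totals was 1.39. Whether lefko held fewer ATSPS4F transcripts was not tested.

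The retained intron of ATSPS4F has a length that is a multiple of 3, which keeps the phase of the reading frame, but an in-frame TAA begins at base 49 of the intron. Read from the annotated start codon, the retained form holds 132 codons before the stop, 12.6% of the 1050 codons of the spliced form. The stop lies 2606 nt before the last exon junction, with 11 junctions after it. Of 141 retention events within coding sequence, 125 brought an early stop (88.7%). A length that is a multiple of 3 was found for 58 of the 141, and 45 of those 58 brought an early stop all the same. Under 13% of the protein, a cutoff just above the 12.6% of ATSPS4F, was left before the stop in 17 of the 141 (12.1%), ATSPS4F included.

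Among the 5 annotated ATSPS4F transcripts, 3 splice this intron and 1 keeps it inside an exon. The transcript that keeps it is annotated with a coding start 175 nt after the intron's end and 876 codons. The fifth begins its annotated coding sequence still further downstream, with 849 codons, and holds neither form. Which of these start codons is used was not measured. An annotated exon covered the intron in 172 of 214 retention events (80.4%), so ATSPS4F shares this property with most of them.

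In LDA, both listed events lie in intron 7 of 28, at chr5:1223187-1223475 on the plus strand (289 nt, within coding sequence), and both had higher inclusion in lefko. The lefko sets held 182, 157 and 106 reads for the retained intron and 13, 4 and 4 skipping reads. The wild-type sets held 52, 32 and 46 retention reads and 26, 20 and 16 skipping reads. Retention reads were more numerous in every lefko set than in any wild-type set, and skipping reads fewer.

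The retention share of LDA was 93.3%, 97.5% and 96.4% in the lefko sets, against 66.7%, 61.5% and 74.2% in the wild-type sets. The mean was 95.7% ± 2.16 in lefko and 67.5% ± 6.37 in wild type (SD, 3 sets each), a change of 28.3 points (SE 3.88). The groups did not overlap, and the lefko sets lay closer together than the wild-type sets. The FDR in the authors' deposited table was 2.98e-11, rank 10 among the 214 retention events. In wild type 130 of the event's 192 reads counted for the intron. With the counting rule unknown, this is not read as a share of transcripts. The intron is covered by no annotated exon of LDA, as in 42 of the 214 retention events.

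Summed over sets, LDA had 445 retention reads in lefko and 130 in wild type, a ratio of 3.42 (95% interval 2.81 to 4.19). Skipping reads summed to 21 in lefko and 62 in wild type, a ratio of 0.339 (0.196 to 0.563). The median over retention events was 2.13 for inclusion reads. For skipping reads it was 0.859, over the 206 of 214 events that had skipping reads in wild type. The total of 466 reads in lefko against 192 in wild type gave a ratio of 2.43, rank 29 from the highest of 214, on the opposite side of the median from ATSPS4F.

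**Figure D2:**
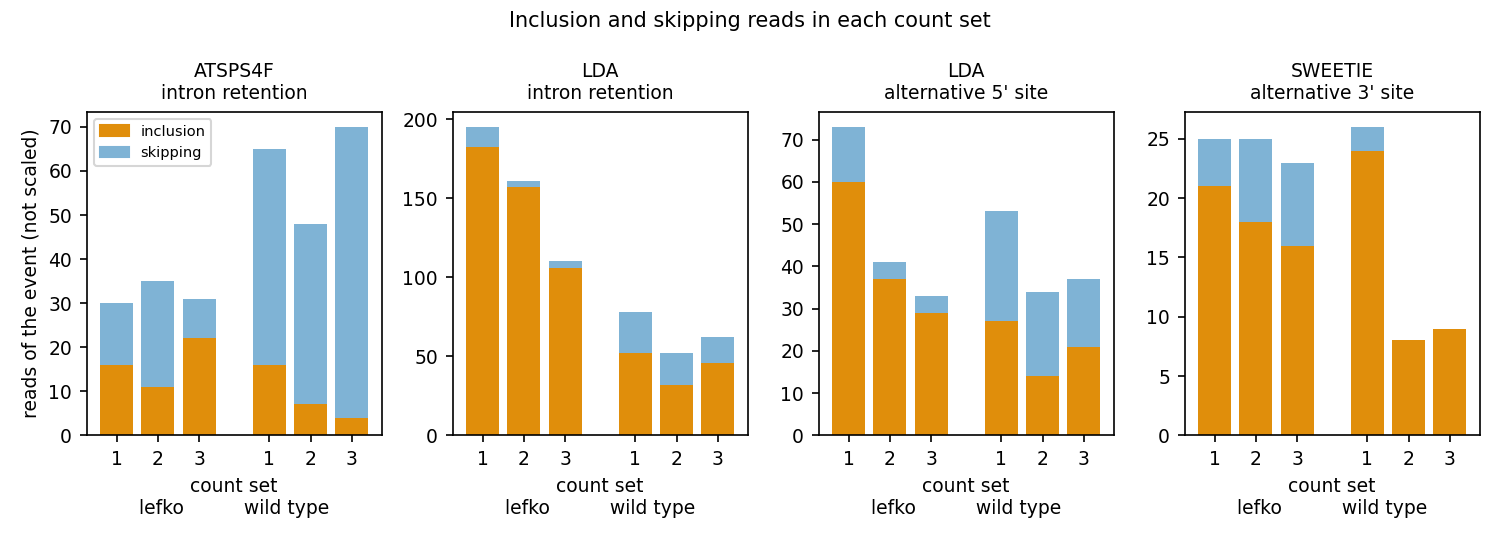
Reads of each event in each count set, not scaled for depth, with inclusion reads in orange and skipping reads in blue stacked above them; the lefko sets stand left of the wild-type sets. Skipping reads of ATSPS4F and LDA were fewer in every lefko set than in any wild-type set, while SWEETIE had 18 skipping reads in lefko and 2 in wild type.

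The alternative 5' splice site of LDA lies 61 nt inside the same intron. The longer exon's junction begins at base 1223248, and the skipping reads are those of the retention event, so the events are not independent. The lefko sets held 60, 37 and 29 reads for the longer exon, against 27, 14 and 21 in wild type. The share was 82.2%, 90.2% and 87.9% in the lefko sets, against 50.9%, 41.2% and 56.8% in the wild-type sets. It averaged 86.8% ± 4.14 in lefko and 49.6% ± 7.87 in wild type (SD, 3 sets each), a change of 37.1 points (SE 5.14). The groups did not overlap. Ranked from the largest rise in lefko, the change stood 5 among all 43 such events. It stood 1 among the 25 with at least 20 reads per set, and falls of larger size do not count in these ranks. In the authors' deposited table its FDR was 4.07e-05. Reads over the first bases of the intron could belong to either form, so the use of the downstream site and retention of the whole intron cannot be told apart by these counts.

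Both 5' splice sites of LDA have the same 9 bases, 3 of the exon side and 6 of the intron side. This run stood at 602 of 133510 annotated introns of nuclear protein-coding genes (0.451%). With a score that sums the log2 odds of each base over those 9 positions, taken from all these introns, both sites scored 10.5, at percentile 96.2. The longer exon of LDA is in no annotated transcript, whereas 29 of 43 alternative 5' splice site events had an annotated longer form.

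The reading frame of LDA meets the same stop in both forms. The stop TAA begins at base 2 of the intron, inside the conserved start of the 5' splice site itself, so retention and the longer exon each leave 344 of 965 codons, 35.6% of the protein. From that stop to the last exon junction there were 2177 or 2041 nt for the retained intron, in the 2 annotated transcripts. With the longer exon the distances were 1949 and 1813 nt. A first stop at intron base 2 was found in 22 of 141 retention events within coding sequence (15.6%). Because the stop comes before the sites diverge, the protein predicted from the annotated start is the same for either form.

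**Figure D3:**
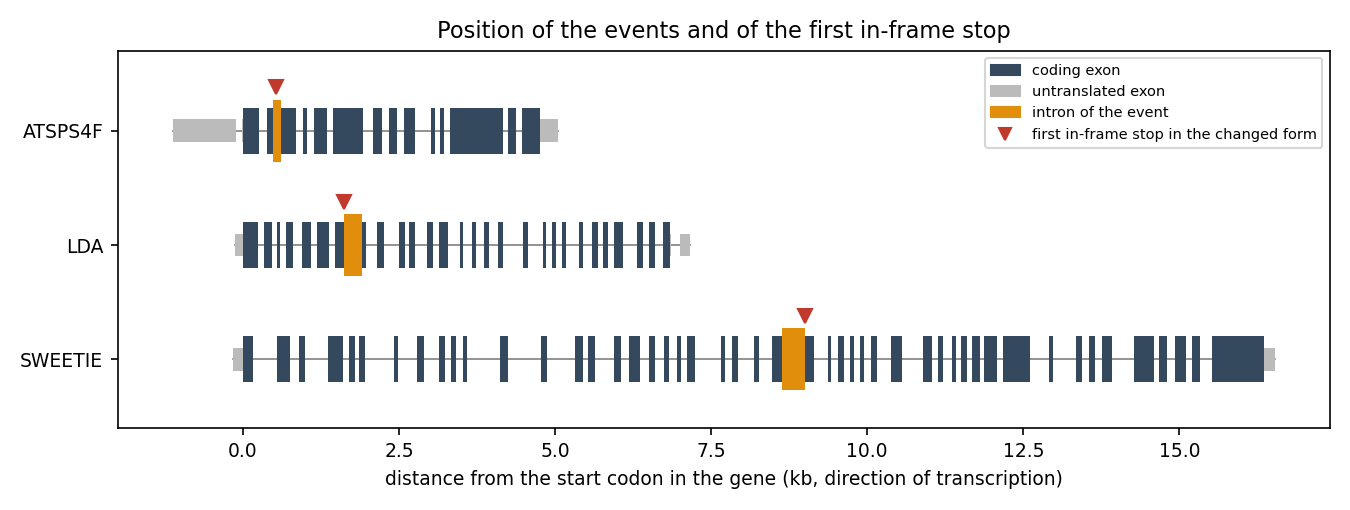
Annotated exons of ATSPS4F, LDA and SWEETIE drawn to scale from the start codon (horizontal axis in kb, direction of transcription), with coding exons in dark blue, untranslated exons in grey, the intron of each event in orange and a red triangle at the first in-frame stop of the changed form. The stop follows 132 codons in ATSPS4F, 344 in LDA and 947 in SWEETIE.

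In SWEETIE, an alternative 3' splice site 4 nt downstream of the annotated one was used more in lefko. The event ends intron 25 of 47, on the minus strand at chr1:25108377-25108736 (360 nt) for the annotated site, within coding sequence. With the downstream site the intron is 364 nt long. The lefko sets held 21, 18 and 16 reads for the annotated site (inclusion) and 4, 7 and 7 for the downstream site (skipping). In wild type the sets had 24, 8 and 9 reads for the annotated site and 2, 0 and 0 for the downstream site. All 3 lefko sets had reads at the downstream site, and 1 of 3 wild-type sets did.

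The inclusion share of SWEETIE was 84.0%, 72.0% and 69.6% in the lefko sets, against 92.3%, 100% and 100% in the wild-type sets. It averaged 75.2% ± 7.73 in lefko and 97.4% ± 4.44 in wild type (SD, 3 sets each), a change of -22.2 points (SE 5.15). The groups did not overlap, but the wild-type sets without downstream reads were thin. A count of 0 allows up to 3 reads, a share of up to 37.5% for 0 of 8 reads and up to 33.3% for 0 of 9. Summed over sets, the downstream site had 18 of 73 reads in lefko and 2 of 43 in wild type, a ratio of 9 in reads with a 95% interval of 2.15 to 80.0. The inclusion share of the summed reads was 75.3% in lefko (63.9% to 84.7%) and 95.3% in wild type (84.2% to 99.4%). With inclusion reads divided by 2 the change was -34.6 points. The FDR in the authors' deposited table was 0.0101.

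Both 3' sites of SWEETIE end in AG, and the 4 bases between them make a tandem of acceptor sites, as the sequence above shows. Scored over 15 intron bases and 1 exon base, the annotated site reached 8.75 (percentile 61 of all annotated introns) and the downstream site 7.53 (percentile 44.1). The median of all introns was 7.96. Sites at most 4 nt apart were found in 8 of 50 alternative 3' splice site events (16.0%). The shorter form of SWEETIE is in none of its 3 annotated transcripts, while 40 of the 50 events had an annotated shorter form.

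Loss of 4 nt shifts the reading frame of SWEETIE. The stop TAG then begins at the fourth base of the shortened exon, after 947 codons, 42.6% of the 2221 or 2222 codons of the annotated proteins. It lies 2981 or 2984 nt before the last exon junction, with 22 junctions after it. Of 39 alternative 3' splice site events within coding sequence, 36 brought an early stop in the form that the annotated transcript lacks (92.3%), and in 14 the sites differed by a multiple of 3. Whether the changed transcripts of the 3 genes are degraded or translated was not measured.

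**Figure D4:**
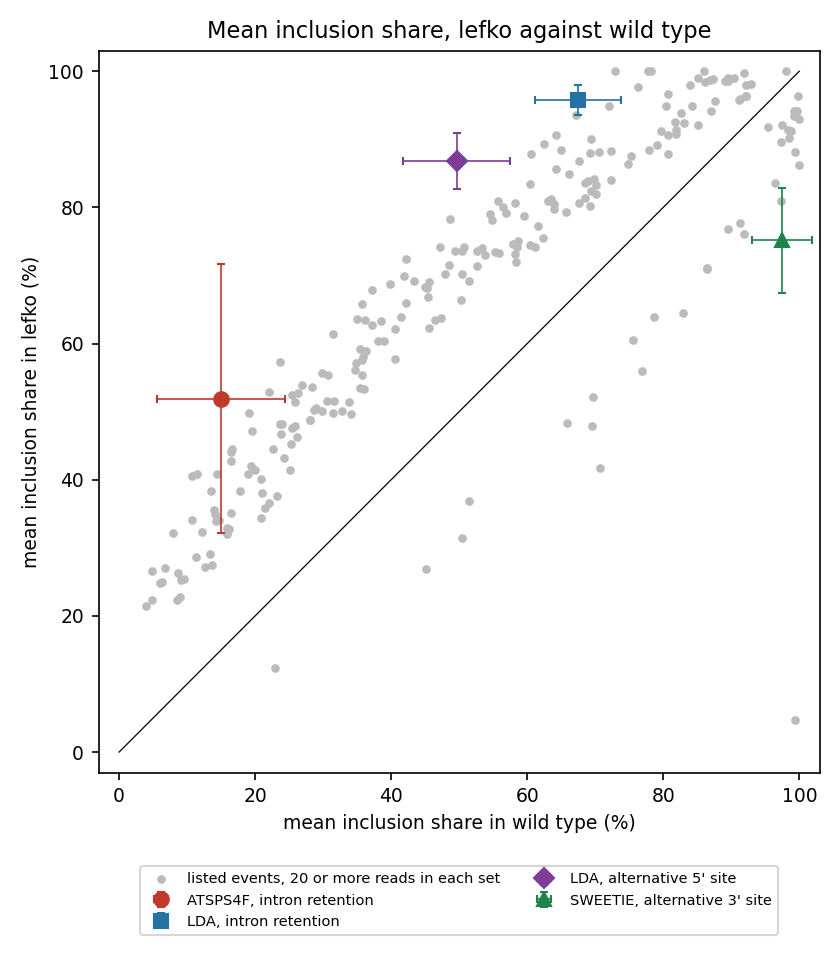
Mean inclusion share in lefko (vertical axis, percent) against wild type (horizontal axis, percent) for listed events whose sets all hold 20 reads or more (grey) and for the 4 events of ATSPS4F, LDA and SWEETIE (coloured, with SD over 3 sets); the line marks equal shares. ATSPS4F and both LDA events lie above the line and SWEETIE, which has under 20 reads in some sets, below it.

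The directions of the members were those of most listed events for LDA and ATSPS4F. Inclusion was higher in lefko in 83.2% of 214 retention events and in 69.8% of 43 alternative 5' splice site events. It was lower in 34% of 50 alternative 3' splice site events, the side on which SWEETIE lies. The ranges of lefko and wild type did not overlap in 4 of the 4 events here and in 91.8% of all 343. Since the authors selected the events on these reads, nothing is read from either share.

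The introns of the 3 genes' events were long for their genes. That of LDA ranked 2 by length among 28 annotated introns (median 125 nt), that of ATSPS4F ranked 3 among 15 (median 100 nt) and the annotated intron of SWEETIE ranked 8 among 49 (median 141 nt). The introns of all listed retention events had a median of 157 nt, so the 129 nt of ATSPS4F lay below it and the 289 nt of LDA above it. The 5' splice sites scored high in each gene, at percentile 82.7 of all introns in ATSPS4F, 96.2 in LDA and 80.7 in SWEETIE. The 3' splice sites scored below the median of all introns in ATSPS4F (percentile 28.6) and LDA (28.2). The annotated 3' site of SWEETIE scored above it (percentile 61). Counted from the weakest 3' site of its own gene, that of ATSPS4F ranked 7 among 15, that of LDA 12 among 28 and that of SWEETIE 30 among 49. GC content was 36.4% in ATSPS4F, 32.2% in LDA and 33.9% in SWEETIE, against a median of 32.7%.

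**Figure D5:**
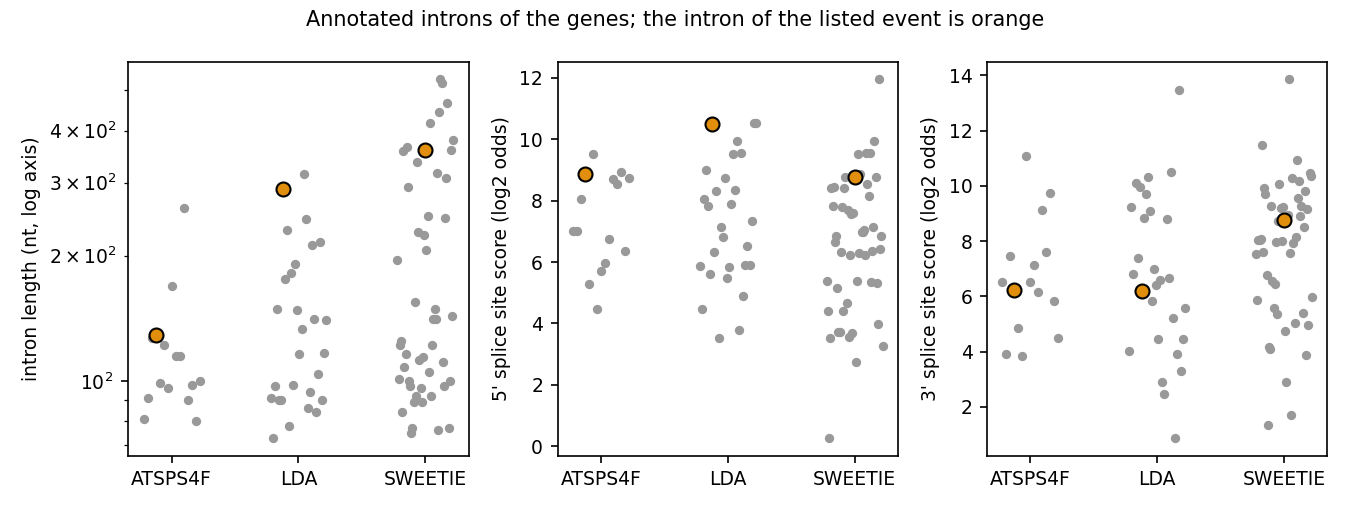
Length (nt, log axis), 5' splice site score and 3' splice site score (log2 odds) of every annotated intron of ATSPS4F, LDA and SWEETIE, with the intron of the listed event in orange. The event's intron was the second longest in LDA and the third longest in ATSPS4F.

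Events of other genes with the most similar pair of mean shares, among those of the same class with at least 20 reads in each set, were compared by Euclidean distance in points over the 2 genotypes. For ATSPS4F the nearest of 159 retention events were PAT2 (distance 4.58 points), AT5G38600 (7.11) and AT5G66550 (7.54). For retention in LDA they were DOG1 (2.2), AT4G32250 (4.62) and AT4G31200 (6.0). The nearest of 24 alternative 5' splice site events to that of LDA were AT1G60900 (8.47), CNX1 (13) and SCL33 (14.5). For SWEETIE the nearest of 34 alternative 3' splice site events were GCP1 (5.69), AT1G15240 (6.69) and ORG1 (8.12). For some of these neighbours the SD over sets exceeded the distance, up to an SD of 18.6 points for CNX1 in lefko. Nothing is therefore read from the order of the neighbours.

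Around these genes, 81 genes of sucrose, starch and sugar metabolism were looked up in the event tables. Of these, 4 were listed (4.94%), against 1.23% of 22245 nuclear protein-coding genes with an intron. The members themselves are 3 of the 4 and were picked because they are listed, so the share says nothing about the list. By group, 1 of 22 genes of sucrose synthesis and cleavage (ATSPS4F), 1 of 17 of starch synthesis, 1 of 19 of starch breakdown (LDA), 1 of 10 of trehalose metabolism and sugar sensing (SWEETIE) and 0 of 13 of sugar transport were listed. Inclusion was higher in lefko in 4 of their 5 events and in 77.8% of all 343 events. The median change was 28.3 points, against 17.7 points over all events. The members hold 4 of those 5 events and were picked with earlier results known, so nothing is read from these values. The other sucrose-phosphate synthase genes, SPS1F, SPS2F and SPS3F, and the other debranching enzyme genes, ISA1, ISA2 and ISA3, were not listed. A list of changed events cannot show whether they were unchanged or too thinly covered.

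The listed gene of starch synthesis was AT5G39790, which encodes PROTEIN TARGETING TO STARCH, a protein that brings granule-bound starch synthase to the starch granule. Retention of its intron 5 (chr5:15933582-15933808, minus strand, 227 nt, within coding sequence) was 56.3%, 59.1% and 57.7% in the lefko sets, against 36.5%, 37.0% and 48.3% in the wild-type sets. The mean was 57.7% ± 1.39 in lefko and 40.6% ± 6.67 in wild type (SD, 3 sets each), a change of 17.1 points (SE 3.94). The groups did not overlap, and 1 wild-type set stood above the other two. This event rested on 1548 reads in lefko and 1615 in wild type, far more than any event of the 3 genes. Its FDR in the authors' deposited table was 0.00916. The retained form meets a TGA at base 61 of the intron, after 157 or 164 codons, which is 57.5% to 75.1% of the protein in its 3 annotated transcripts.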

How the data were processed

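RNA-seq libraries of lefko and wild-type cotyledons were made with a low-input TruSeq kit, per the labels' protocols. The submitters' processing notes name HISAT2 2.0.4 and the build TAIR10. The authors deposited 5 event tables, whose cells hold 3 whole-number read counts per genotype for the inclusion form and 3 for skipping. The deposited p-value and FDR columns are the authors' own. The event caller is not given in the sources used here, nor is its counting rule or any filter. No pair of count sets held the same counts in more than 7 of 343 events.

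Shares, means and SDs were computed per count set in Python 3.11.15 with NumPy 2.4.6, pandas 2.3.3 and SciPy 1.17.1, and figures with matplotlib 3.10.9. No test was made between genotypes, since the members come from lists filtered on that contrast. Intervals are exact (Clopper-Pearson, 95%), and read ratios have exact conditional binomial intervals. Starts were counted from 0: of 1038 exon entries, 852 then matched an exon of a protein-coding gene in RefSeq TAIR10.1, and 1 did when counted from 1. All 5 sequence versions were those of the reference. Reading frames were translated from annotated starts. The translation code recovered 200 of 200 simulated transcripts with a retained stretch, and alternative splice site forms were not simulated. The coding effect of other events uses the transcript with the longest coding sequence. Splice site scores take log2 odds against equal base frequencies.

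Named were all events of the 3 genes, listed genes of the pathway lists and the 3 nearest events to each. The members and lists were chosen with earlier results of these data known. Alternatives were summed reads, halved inclusion reads, log2 odds with 0.5 added, leaving out count sets, an FDR of at most 0.01 and at least 20 reads per set.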

Additional observations from a re-analysis of the deposited data

How the results depend on the processing

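All 4 events of ATSPS4F, LDA and SWEETIE and that of AT5G39790 kept their direction under summed reads, inclusion reads divided by 2, averaged log2 odds and each left-out count set. With inclusion reads divided by 2 the change was 40.7 points for LDA retention, 43.5 for the LDA alternative 5' splice site, -34.6 for SWEETIE and 28.4 for ATSPS4F. Leaving out 1 count set, in 1 genotype or both, gave 22.8 to 47.2 points for ATSPS4F, 24.4 to 31.6 for LDA retention, 31.2 to 40.7 for the LDA alternative 5' splice site and -29.2 to -18.2 for SWEETIE. The lowest value of ATSPS4F came without the third set of both genotypes, and the SWEETIE value of -29.2 points without the first. An FDR of at most 0.01 left 2 of the 4 events, both of LDA, and 2 of the 4 listed pathway genes, LDA and AT5G39790, so it gave no value for ATSPS4F or SWEETIE. At least 20 reads in each set left 3 pathway genes, without SWEETIE. Depth limits SWEETIE most, with 8 and 9 reads in the wild-type sets that held no downstream reads. No paired analysis was possible because the labels give 1 sample per genotype and the count sets carry no numbers.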

Other observations

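Other listed genes of carbohydrate metabolism stand outside the lists above and were picked out after their values were seen. AT5G65685, annotated as a UDP-glycosyltransferase family protein, is also known as STARCH SYNTHASE 5, which takes part in the formation of starch granules. Its retained intron had a share of 60.5%, 58.3% and 58.8% in the lefko sets, against 41.8%, 34.0% and 30.6% in the wild-type sets. The mean was 59.2% ± 1.16 in lefko and 35.5% ± 5.77 in wild type (SD, 3 sets each), a change of 23.7 points, with an FDR of 0.0369 in the authors' deposited table.

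PGL1 encodes 6-phosphogluconolactonase 1, an enzyme of the oxidative pentose phosphate pathway. The longer form of its alternative 5' splice site had a share of 42.7%, 44.4% and 35.6% in the lefko sets, against 11.0%, 15.1% and 17.2% in the wild-type sets. The mean was 40.9% ± 4.67 in lefko and 14.4% ± 3.15 in wild type (SD, 3 sets each), a change of 26.5 points. Skipping reads summed to 130 in lefko and 374 in wild type, while inclusion reads summed to 90 in lefko and 64 in wild type.

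AT1G54730 and AT4G04750 are major facilitator superfamily proteins annotated by RefSeq with sugar transport activity, and both had a listed retained intron. That of AT1G54730 had a mean share of 87.5% ± 1.67 in lefko and 75.3% ± 5.02 in wild type (SD, 3 sets each), a change of 12.3 points. An alternative 5' splice site of AT1G54730 was also listed, with a mean share of 89.1% in lefko and 79.0% in wild type. Its skipping reads, 239 in lefko and 211 in wild type, are those of the retention event, so these events are not independent. For AT4G04750 the direction was the opposite, with 11 inclusion and 12 skipping reads over the lefko sets, against 3 inclusion and 0 skipping reads over the wild-type sets. Its share was 60%, 50% and 16.7% in the lefko sets and 100% in each wild-type set, where each set held 1 read.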
